A study of Rattus norvegicus with 13 samples.

Results

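The genes described here are 10 genes of the circadian clock, namely *Arntl* (also called *Bmal1*), *Clock*, *Per1*, *Per2*, *Per3*, *Cry1*, *Cry2*, *Nr1d1*, *Nr1d2* and *Dbp*. Their Ensembl identifiers in the table are, in that order, ENSRNOG00000014448, ENSRNOG00000002175, ENSRNOG00000007387, ENSRNOG00000020254, ENSRNOG00000018413, ENSRNOG00000006622, ENSRNOG00000007478, ENSRNOG00000009329, ENSRNOG00000046912 and ENSRNOG00000021027. They were chosen by symbol, and all 10 were found, each in 1 row, among the 14790 genes of the table. The study sequenced RNA of mammary epithelial cells (MEC) from 13 rats, of which 6 were 6 weeks old and 7 were 10 weeks old, each giving 1 library. The younger rats are within the WOS (window of susceptibility) and the older rats are outside it. WOS is the span of early life in which the mammary gland is most easily driven to cancer. All rats were of the Wistar-Furth strain, which is susceptible to mammary cancer, and no treatment or engineered allele separated the ages. The cells were ductal fragments freed from fresh glands by collagenase, then collected on a nylon filter per the labels and by differential centrifugation per the methods of the study. The preparation is enriched for epithelium and still holds stromal fibroblasts and immune cells. The hour of day at which each rat was killed is not given in the sources used here. Each rat is called by the number in its label.

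The circadian clock is a feedback loop of transcription that runs with a period of about a day in nearly every cell. ARNTL and CLOCK bind DNA as a pair at E-boxes and switch on the *Per* and *Cry* genes, whose proteins return to the nucleus and hold the pair in check. A second arm runs through NR1D1 and NR1D2, nuclear receptors also known as REV-ERBs, which repress *Arntl* at ROR elements. DBP carries the rhythm to other genes through D-boxes. In a tissue sampled at a known hour, genes of the *Arntl* arm and genes of the *Per*, *Nr1d1* and *Dbp* arm peak at different times of day.

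The RefSeq promoter table (GRCr8) held a window for 9 of the 10 genes (all but *Cry1*), and the 250 bases before the start were searched on both strands for the letters of these elements. The windows at the first listed start that held a match are printed below to show which element each gene carries, 5′ to 3′ on the strand of the gene, with the matched letters in capitals. *Per2* (chr9:99496994-99497243, minus strand) held an E-prime box, CACGTT, beginning 62 bases before the start, and a D-box, TTATGTAA, beginning 192 bases before it. *Cry2* (chr3:98860438-98860687, minus strand) and *Nr1d1* (chr10:84231813-84232062, minus strand) held the E-prime box on the other strand, AACGTG, beginning 212 and 174 bases before the start. *Arntl* (chr1:176766078-176766327, plus strand) held the ROR core TAGGTCA, beginning 16 bases before the start.
Per2: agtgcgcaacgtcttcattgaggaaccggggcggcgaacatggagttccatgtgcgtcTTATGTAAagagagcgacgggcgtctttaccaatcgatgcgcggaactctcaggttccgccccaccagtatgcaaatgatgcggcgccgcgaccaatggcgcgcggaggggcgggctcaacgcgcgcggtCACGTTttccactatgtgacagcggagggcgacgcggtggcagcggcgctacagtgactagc
Cry2: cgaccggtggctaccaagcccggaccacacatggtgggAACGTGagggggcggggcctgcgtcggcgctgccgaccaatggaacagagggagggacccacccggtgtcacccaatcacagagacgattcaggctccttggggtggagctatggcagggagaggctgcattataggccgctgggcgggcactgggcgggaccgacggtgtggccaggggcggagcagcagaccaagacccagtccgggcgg
Nr1d1: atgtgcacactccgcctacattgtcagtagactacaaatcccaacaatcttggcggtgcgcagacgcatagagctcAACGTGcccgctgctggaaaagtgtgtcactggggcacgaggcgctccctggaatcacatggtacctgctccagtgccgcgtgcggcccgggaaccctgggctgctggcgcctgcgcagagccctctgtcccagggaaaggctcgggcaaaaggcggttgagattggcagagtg
Arntl: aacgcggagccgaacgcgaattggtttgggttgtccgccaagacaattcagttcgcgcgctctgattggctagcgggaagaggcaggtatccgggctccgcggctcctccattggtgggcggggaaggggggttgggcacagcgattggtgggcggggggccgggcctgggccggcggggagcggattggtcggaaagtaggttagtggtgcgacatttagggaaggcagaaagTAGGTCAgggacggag
A second start of *Nr1d1* had the E-box CACGTG in its window, and the windows of *Clock*, *Per1*, *Per3*, *Nr1d2* and *Dbp* held none of the letters searched. Among 33469 promoter windows of the same length, 5.59% held CACGTG, 4.07% CACGTT, 0.828% TTATGTAA, 2.26% TAGGTCA and 3.44% TGGGTCA, each on either strand, and no 2 of these motifs share letters in the windows printed. A match is a description of the letters only.

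The values are normalized counts, that is, estimated read counts scaled per library and rounded by the authors, and their totals ran from 13261906 to 15659533 per rat. Younger and older rats were set against each other by limma over all genes, on the scale of log2(normalized count + 1), with Benjamini-Hochberg adjustment and a threshold of 0.05. A log2 fold change above 0 is a higher level at 6 weeks. By this test 2381 genes (16.1%) differed, with 1288 (8.71%) higher at 6 weeks and 1093 (7.39%) higher at 10 weeks. The first component of the variation within the ages, computed without the clock genes, held 28.3% of it and set 5 rats apart at a gap of 27.3. These were rats 75 and 80 at 6 weeks and rats 78, 81 and 83 at 10 weeks, here called the smaller rat set, and the other 8 rats, 4 of each age, are the larger rat set. Between 74 and 463 genes were at 0 in rats of the smaller set and between 73 and 195 in rats of the larger set. Of the whole numbers 1 to 30, 10, 15, 16, 7 and 0 occurred in no gene of rats 75, 80, 78, 81 and 83. In rats of the larger set 0 to 8 of them were missing. Results that rest on these rats are given with and without them.

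Of the 10 clock genes, *Per2* alone passed the test between the ages. It was higher outside WOS, as were 7.39% of all genes, and no clock gene was called higher within WOS. The log2 fold change was below 0, toward higher levels outside WOS, for 7 of the 10 genes and above 0 for *Nr1d1*, *Nr1d2* and *Dbp*. Over all genes 47.5% were below 0. The median log2 fold change was -0.24 for the clock genes and 0.028 for all genes. An unadjusted p under 0.05 was reached by *Per2*, *Clock* and *Dbp*, against 31.6% of all genes. The ages overlapped for every clock gene, whereas 6.07% of all genes had no overlap. In RNA from a mixed tissue, fewer cells of a type and less RNA per cell cannot be told apart.

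**Figure D1:**
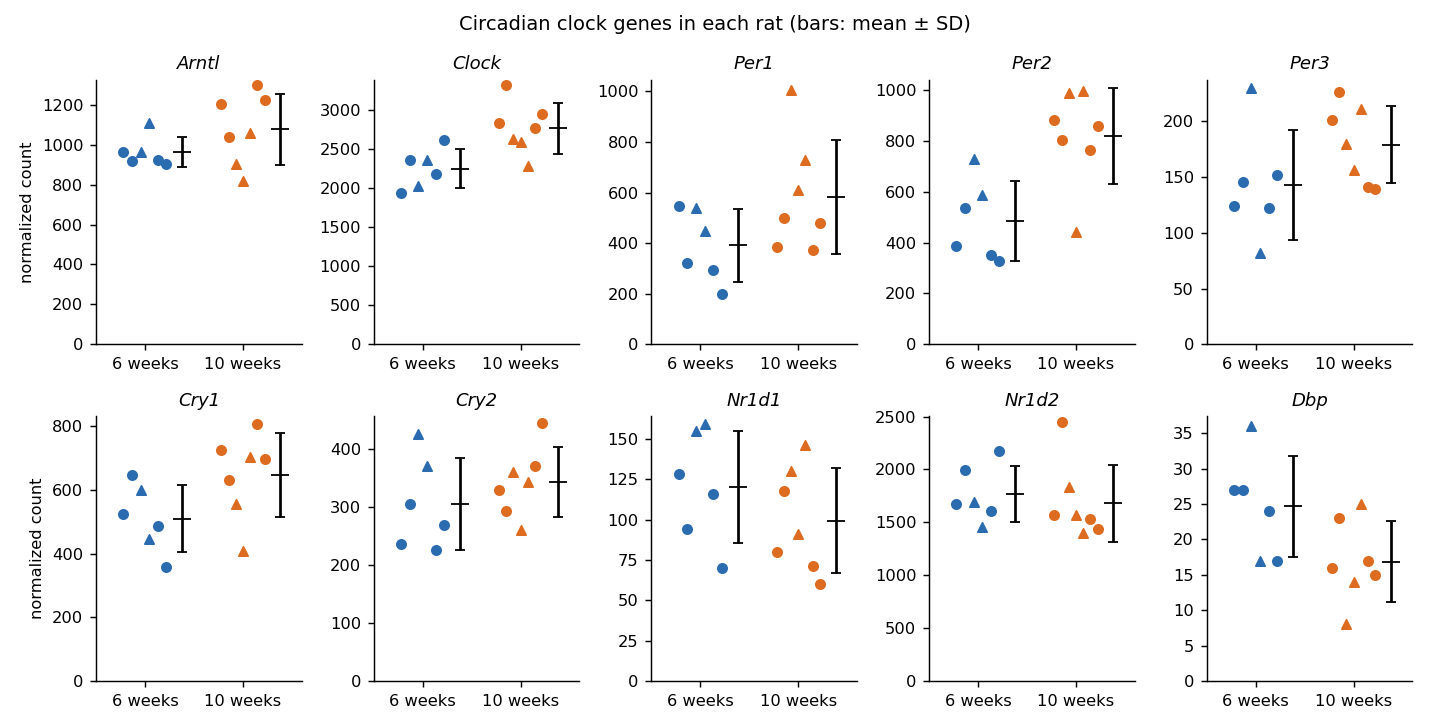
Normalized count (linear axis from 0) of each clock gene in each rat at 6 weeks (blue) and 10 weeks (orange), with circles for the larger rat set, triangles for the smaller rat set and bars for the mean ± SD. *Per2* ran from 326 to 728 at 6 weeks and from 442 to 994 at 10 weeks, and the ages overlapped in every panel.

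*Per2* encodes a repressor of the ARNTL and CLOCK pair. Its normalized count ran from 326 through a median of 459.5 to 728 in the 6 rats within WOS, and from 442 through a median of 860 to 994 in the 7 rats outside WOS. All 6 younger rats lay below the median of the older rats, and 6 of the 7 older rats lay above every younger rat. Rat 81 was the exception, at 442. The younger rats averaged 485 ± 158 (SD, n = 6) and the older rats 819 ± 187 (SD, n = 7), a log2 fold change of -0.78 ± 0.23 (SE, 95% interval -1.27 to -0.28, limma, adjusted p = 0.0374), or 1.71-fold higher outside WOS. The call was a narrow one. It remained when rats 75, 80 or 81 were left out and was lost when any of the other 10 rats was, with log2 fold changes from -0.92 to -0.67 and adjusted p from 0.00834 to 0.0856. In the larger rat set the log2 fold change was -1.07 (limma, adjusted p = 0.00584) and in the smaller set -0.21 (limma, adjusted p = 0.848). The difference between the rat sets was not tested. Scaling each library to the geometric mean of the totals (library size scaling) gave an adjusted p of 0.064 by limma.

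*Per1* and *Per3* encode the other PER repressors, and *Per1* is also switched on within minutes by many signals. *Per1* ran from 197 through a median of 385 to 548 at 6 weeks and from 373 through 500 to 1006 at 10 weeks. Of the 6 younger rats, 3 lay below all older rats and 2 above the older median. Its log2 fold change was -0.58 ± 0.28 (SE, 95% interval -1.20 to 0.031, limma, adjusted p = 0.179). *Per3* ran from 82 through 135 to 230 at 6 weeks and from 139 through 180 to 226 at 10 weeks, with the lowest and the highest of all rats both within WOS. Its log2 fold change was -0.37 (limma, adjusted p = 0.241).

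The cryptochromes are the partners of the PER proteins in repression. *Cry1* ran from 357 through a median of 505 to 649 at 6 weeks and from 409 through 697 to 809 at 10 weeks. All 6 younger rats lay below the older median, and the log2 fold change was -0.34 ± 0.18 (SE, limma, adjusted p = 0.202). *Cry2* ran from 226 through 287.5 to 426 at 6 weeks and from 260 through 344 to 446 at 10 weeks, with a log2 fold change of -0.19 (limma, adjusted p = 0.479). For *Cry2* the larger rat set gave -0.46 and the smaller set 0.32, neither past the threshold.

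*Arntl* and *Clock* encode the activating pair. *Clock* ran from 1928 through a median of 2269.5 to 2606 at 6 weeks and from 2274 through 2766 to 3314 at 10 weeks. All 6 younger rats lay below the older median, 5 of the 7 older rats lay above every younger rat, and the log2 fold change was -0.30 ± 0.11 (SE, 95% interval -0.54 to -0.063, limma, adjusted p = 0.0791). With the rat set as a term the adjusted p of *Clock* was 0.0371 by limma. *Arntl* ran from 906 through a median of 944 to 1109 at 6 weeks and from 816 through 1060 to 1302 at 10 weeks, so that the older rats held both the lowest and the highest values. Its log2 fold change was -0.15 ± 0.12 (SE, limma, adjusted p = 0.433) over all rats, -0.36 (limma, adjusted p = 0.0449) in the larger rat set and 0.17 (limma, adjusted p = 0.721) in the smaller set.

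The REV-ERB genes repress *Arntl*. *Nr1d1* ran from 70 through a median of 122 to 159 at 6 weeks and from 60 through 91 to 146 at 10 weeks, with a log2 fold change of 0.28 ± 0.25 (SE, limma, adjusted p = 0.454). *Nr1d2* ran from 1456 through 1684.5 to 2171 at 6 weeks and from 1396 through 1568 to 2445 at 10 weeks, with a log2 fold change of 0.083 (95% interval -0.23 to 0.40, limma, adjusted p = 0.73). In both genes the younger and older rats covered much the same range.

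*Dbp*, an output activator that in many tissues swings widely over the day, was present at low levels, from 17 through a median of 25.5 to 36 at 6 weeks and from 8 through 16 to 25 at 10 weeks. All 6 younger rats lay above the older median, and 4 of the 7 older rats lay below every younger rat. The log2 fold change was 0.55 ± 0.24 (SE, 95% interval 0.018 to 1.07, limma, unadjusted p = 0.0437, adjusted p = 0.145). Counting error is largest at low values and could not be computed, since the depth before scaling is not given, and the scale of log2(value + 1) understates the change of a low gene. The lowest values of *Dbp* were 8 in rat 78 at 10 weeks and 17 in rats 80 and 86 at 6 weeks. In these 3 rats 16, 15 and 0 of the whole numbers 1 to 30 occurred in no gene. Their part in the difference was tested only by leaving out each rat or rat set.

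**Figure D2:**
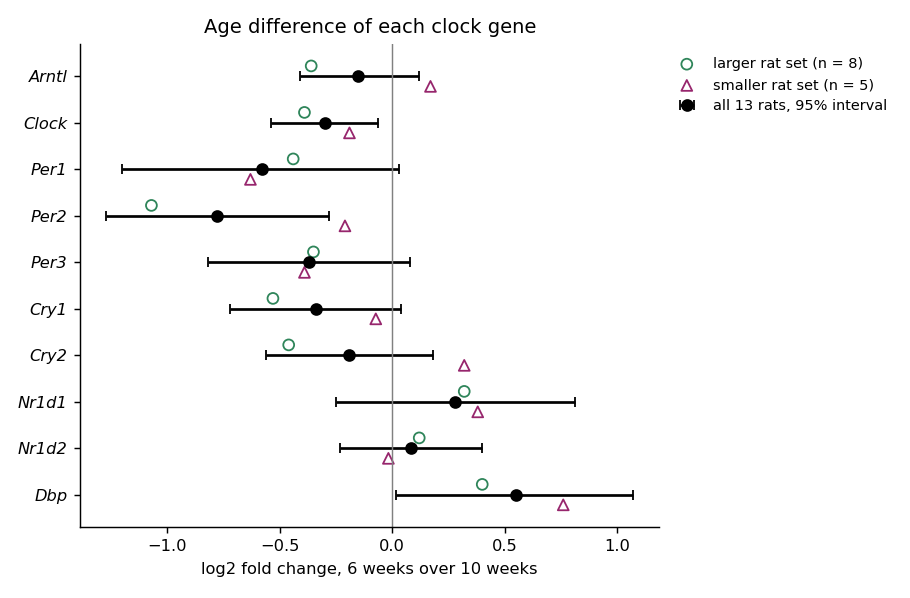
Log2 fold change (6 weeks over 10 weeks, x axis) of each clock gene, with black points and 95% intervals for all 13 rats, green circles for the larger rat set (n = 8) and purple triangles for the smaller set (n = 5). The interval of *Per2* ends at -0.28, and the values of *Per2* in the larger and the smaller set were -1.07 and -0.21.

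Other genes of the loop were read from a list of 17, of which 15 were in the table (*Rorb* and *Fbxl21* were not). Of these 15 genes, 2 were called higher outside WOS and 1 higher within WOS, against 7.39% and 8.71% of all genes, and their median log2 fold change was -0.01. The share called was near that of all genes (16.1%). *Bhlhe41*, which encodes a repressor that competes for E-boxes, ran from 95 to 130 at 6 weeks and from 126 to 289 at 10 weeks, with a log2 fold change of -0.93 ± 0.18 (SE, limma, adjusted p = 0.00456). Of the 7 older rats, 6 lay above every younger rat. *Npas2*, which encodes a stand-in for CLOCK, ran from 211 to 357 at 6 weeks and from 327 to 466 at 10 weeks, with a log2 fold change of -0.57 ± 0.14 (SE, limma, adjusted p = 0.0149). Both calls remained whichever rat was left out. In the larger and the smaller rat set the log2 fold change of *Npas2* was -0.77 and -0.20 (limma, adjusted p = 0.00946 and 0.679). That of *Bhlhe41* was -1.08 and -0.71 (limma, adjusted p = 0.00375 and 0.493). The difference between the rat sets was not tested. *Timeless*, whose product in mammals works chiefly at the DNA replication fork, ran from 59 to 102 at 6 weeks and from 19 to 103 at 10 weeks, with a log2 fold change of 1.23 ± 0.33 (SE, limma, adjusted p = 0.0258). Its call was lost without rat 70, 84 or 72, at adjusted p of 0.0583, 0.0589 and 0.0514.

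All 10 genes of a list of clock outputs were in the table, and 2 were called, both higher outside WOS, against 7.39% of all genes in that direction. *Noct*, which encodes the rhythmic enzyme nocturnin, ran from 3782 through a median of 4056.5 to 4934 at 6 weeks and from 5327 through 6413 to 7467 at 10 weeks. Every older rat lay above every younger rat, and the log2 fold change was -0.58 ± 0.11 (SE, limma, adjusted p = 0.00404). *Lonrf3* ran from 335 to 551 and from 518 to 848, with a log2 fold change of -0.61 ± 0.14 (SE, limma, adjusted p = 0.013). *Tef* and *Hlf*, the relatives of *Dbp* in the same factor family, had log2 fold changes of -0.19 and -0.16 that did not pass the test (limma, adjusted p = 0.376 and 0.89). *Hlf* was at 0 to 24 in the younger rats. The median log2 fold change of the list was -0.19. *Tspan4* had a log2 fold change of 0.70 that did not pass the test (limma, adjusted p = 0.056), with all 6 younger rats above the older median. Under a minimum of 10 in every rat, limma-trend, sample quality weights or a rat set term, 4 genes of this list were called in place of 2. In each of these settings 1 of the 4 was called higher within WOS and 3 higher outside WOS. Over all genes these settings called 2291 of 12021, and then 2608, 5647 and 3334 of 14790.

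**Figure D3:**
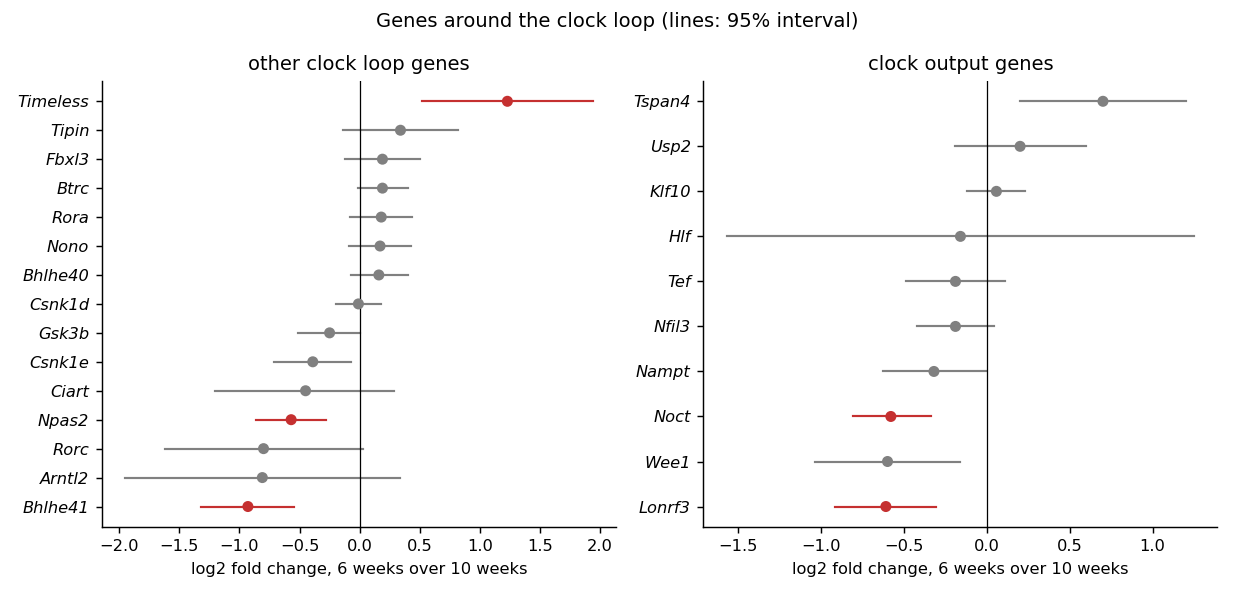
Log2 fold change (6 weeks over 10 weeks, x axis) with its 95% interval for the 15 other clock loop genes and the 10 clock output genes, in red where the adjusted p was under 0.05. *Bhlhe41* at -0.93, *Npas2* at -0.57, *Noct* at -0.58 and *Lonrf3* at -0.61 lay below 0 and *Timeless* at 1.23 above it.

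*Per* genes also respond to outside signals, so lists of immediate early genes and of glucocorticoid response genes were read beside them. Of 13 immediate early genes 4 were called, all higher outside WOS (7.39% of all genes), and the median log2 fold change was -0.23. They were *Fosl1* (-0.57), *Zfp36* (-0.61), *Atf3* (-0.53) and *Btg2* (-0.35), with adjusted p of 0.00828, 0.0145, 0.0189 and 0.0291 by limma. The call of *Btg2* was lost without rat 84, 74 or 78 (adjusted p = 0.0594, 0.0507 and 0.0532), and *Atf3* was at -0.33 with sample quality weights (adjusted p = 0.0572). With library size scaling, and in the larger rat set alone, 2 of the 13 were called, where over all genes 2069 of 14790 and 3469 of 14774 were. The 8 glucocorticoid response genes take 9 rows, since *Nr3c1*, the receptor gene, has 2. Of these 4 were called, all higher outside WOS (7.39% of all genes), and the median was -0.33. They were *Errfi1* (-0.90), *Pdk4* (-2.55), *Fkbp5* (-0.71) and *Zbtb16* (-1.24), with adjusted p of 0.00017, 0.000206, 0.00281 and 0.0335 by limma. The call of *Zbtb16* was lost when rat 71, 75, 84, 86, 74 or 87 was left out, with adjusted p of up to 0.0767. *Pdk4* ran from 733 to 1462 in the younger rats and from 3981 to 13242 in the older ones. The 2 rows of *Nr3c1* had log2 fold changes of 0.22 and 0.10 that did not pass the test. *Sgk1* leaned the same way, at 0.40 (limma, adjusted p = 0.0637), with all 6 younger rats above the older median. Under limma-trend, sample quality weights or a rat set term, 1 gene of this list was called higher within WOS and 4 higher outside WOS. Over all genes these settings called 1354, 3009 and 1760 of 14790 higher within WOS.

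Markers of the cell types that the preparation could hold were read in the same fit. Luminal and basal epithelial markers were present in every rat. Over all genes 16.1% were called, 8.71% higher within WOS and 7.39% higher outside WOS. Of 7 luminal markers 1 was called (*Epcam*, higher outside WOS), and of 7 basal markers 0 were called. With 7 markers each, these counts are too few to be told from the share over all genes. Of 5 fibroblast markers 3 were called higher within WOS, and their summed level was 105230 to 220582 within WOS and 18702 to 54383 outside WOS. *Col3a1* and *Col1a1* made up most of that sum, while *Pdgfra* and *Dcn* had log2 fold changes of 0.13 and 0.57 that did not pass the test (limma, adjusted p = 0.78 and 0.197). Of 5 adipocyte markers 2 were called higher within WOS, with sums of 4688 to 7405 and 2924 to 6058. The 2 called were *Adipoq*, at 20 to 56 and 0 to 12, and *Plin1*, at 4 to 19 and 0 to 6. *Lpl* and *Fabp4* made up most of the sums, with log2 fold changes of 0.53 and -0.09 that did not pass the test (limma, adjusted p = 0.0704 and 0.764). All 6 proliferation genes were called higher within WOS, with sums of 2216 to 4811 and 237 to 1254. Of 4 mast cell markers 3 were called higher within WOS and 1, *Kit*, which luminal cells also express, higher outside WOS, with sums of 1704 to 2626 and 1479 to 3770. *Kit* made up most of these sums, and *Cpa3*, *Tpsb2* and *Ms4a2* were 14.5-fold, 9.76-fold and 9.66-fold higher within WOS on the scale of log2(normalized count + 1). Of 4 lymphocyte markers 1 was called, *Cd79b*, at 1 to 16 within WOS and 0 to 3 outside WOS, with list sums of 96 to 319 and 137 to 493. None was called among 5 macrophage markers (sums of 1131 to 1941 and 1019 to 2380), 4 endothelial markers (4822 to 8619 and 4528 to 7297) and 2 skeletal muscle markers (16 to 54 and 14 to 56). The part of these markers in the age difference of *Per2* was not tested.

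The clock genes differed in how far rats of 1 age spread. The SD of log2(normalized count + 1) within the ages was lowest for *Clock* at 0.17 and *Arntl* at 0.20, at the 7.23 and 13.6 percentiles of all genes. It was 0.25 for *Nr1d2*, 0.31 for *Cry2*, 0.32 for *Cry1*, 0.39 for *Per3*, 0.43 for *Per2*, 0.46 for both *Dbp* and *Nr1d1*, and 0.54 for *Per1*. The median gene had 0.37, so that 5 clock genes lay above it. The activating pair thus varied least between rats and *Per1* most. *Clock*, *Nr1d2* and *Arntl* also had the highest counts of the clock genes, with medians of 2269.5, 1684.5 and 944 at 6 weeks. *Per1* (385) had a higher median than *Dbp* (25.5) and *Nr1d1* (122). The percentiles were taken over all genes and not over genes of like level, so spread was not separated from level.

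Co-variation between rats was measured on the deviations of log2(normalized count + 1) from the mean of each rat's age, so that an age difference cannot create it. Among the 45 pairs of clock genes, 0 passed the threshold after adjustment over the pairs (permutation test, 100000 shufflings within the ages, two-sided), and 7 had an unadjusted p under 0.05. The highest r was that of *Per1* with *Nr1d1*, at 0.80 (Spearman's rho 0.80, permutation p = 0.00209 and 0.00285, adjusted p = 0.0682 and 0.128). Their deviations had the same sign in 10 of 13 rats, and r was 0.69 without rats 86 and 78, 0.88 at 6 weeks, 0.74 at 10 weeks and 0.64 in the larger rat set. Once the first component was removed, r fell to 0.64 (adjusted permutation p = 0.147). *Per2* with *Cry2* also had an r of 0.80 (rho 0.75, permutation p = 0.00303 and 0.011, adjusted p = 0.0682 and 0.249). That r was 0.77 without rats 84 and 86, 0.92 at 6 weeks, 0.65 at 10 weeks and 0.43 in the larger rat set. Once the first component was removed, it was 0.79 (adjusted permutation p = 0.0837). With library size scaling, and without rat 87, both pairs passed the threshold, with adjusted permutation p of 0.0313 and 0.0423.

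Within the activating pair, *Arntl* with *Clock* had an r of 0.18 (rho 0.10, permutation p = 0.602 and 0.755, adjusted p = 0.858 and 0.896), and in the larger rat set r was -0.71. *Arntl* with *Cry1* had an r of 0.64 (rho 0.53, permutation p = 0.0203 and 0.0716, adjusted p = 0.241 and 0.322), and the r was 0.94 in the 7 older rats and -0.077 in the 6 younger rats. As each rat was left out r ran from 0.38 without rat 81 (adjusted permutation p = 0.574) to 0.76 without rat 80 (adjusted permutation p = 0.0207). *Clock* with *Per1* had an r of -0.66 (rho -0.60, permutation p = 0.0219 and 0.0439, adjusted p = 0.241 and 0.3). *Per2* with *Cry1* had an r of 0.65 (rho 0.44, permutation p = 0.0268 and 0.159, adjusted p = 0.241 and 0.512), and 0.83 with an adjusted permutation p of 0.0265 once the first component was removed. Without rat 81 the r of *Per2* with *Cry1* was 0.41 (adjusted permutation p = 0.725). *Clock* with *Nr1d2* had an r of 0.61 (rho 0.26, permutation p = 0.0417 and 0.403, adjusted p = 0.268 and 0.854).

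Between the *Arntl* arm and the genes it drives or is repressed by, no pair passed. *Arntl* with *Cry2* had an r of 0.53 (rho 0.54, permutation p = 0.0378 and 0.06, adjusted p = 0.268 and 0.3). That r was 0.52 at 6 weeks, 0.66 at 10 weeks, 0.46 in the larger rat set and 0.39 without rats 85 and 87. *Arntl* had an r of 0.44 with *Per2* (rho 0.35, permutation p = 0.125 and 0.231, adjusted p = 0.458 and 0.693), but 0.047 without rat 81 and 0.0052 in the larger rat set. The value over all 13 rats thus depended on rat 81. In the 6 younger rats, which do not include rat 81, it was 0.51 (exact permutation p = 0.339). Once the first component was removed it was 0.57 over all rats. With *Nr1d1* the r of *Arntl* was -0.22 (rho -0.011, permutation p = 0.499 and 0.976, adjusted p = 0.858 and 0.993), and 0.74 at 6 weeks against -0.57 at 10 weeks. As each rat was left out it ran from -0.37 without rat 80 to -0.076 without rat 87. With *Dbp* it was 0.21 (rho 0.21, permutation p = 0.556 and 0.512, adjusted p = 0.858 and 0.854), and -0.067 without rat 78. At 13 rats these values leave wide room for a relation that could not be detected.

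**Figure D4:**
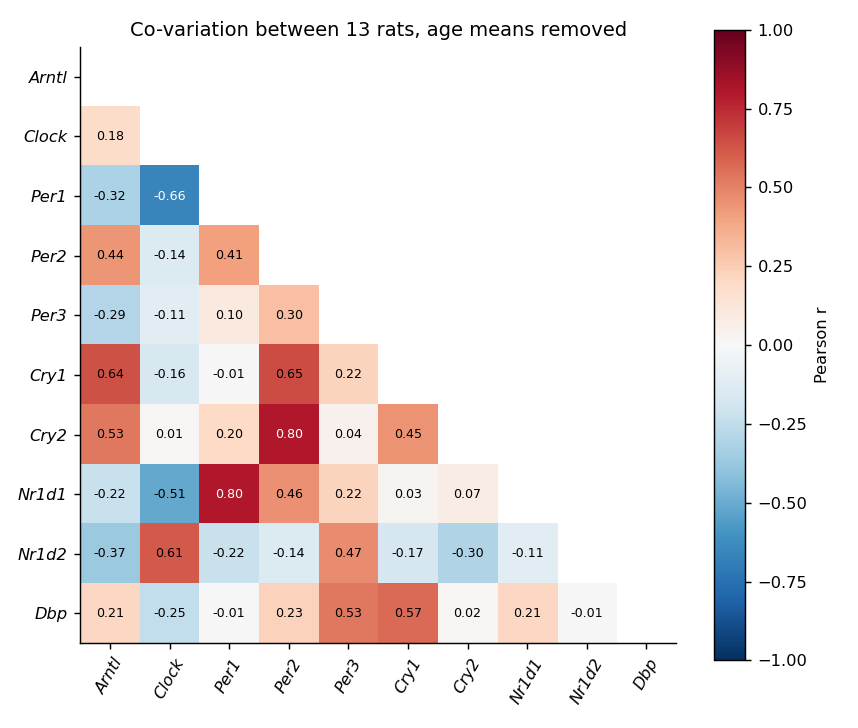
Pearson r (color, with its value) of the deviations from the age means for the 45 pairs of clock genes over 13 rats. The values of 0.80 for *Per1* with *Nr1d1* and for *Per2* with *Cry2* were the highest, and that of -0.66 for *Clock* with *Per1* was the lowest.

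Each clock gene was also set against the first component and against the mean log2 level of the proliferation and the immediate early lists, which makes 30 relations chosen after values had been seen. *Per2* was lower in rats with more of the proliferation genes, with an r of -0.82 (rho -0.87, permutation p = 0.00148 and 0.00235, adjusted over the 30 relations p = 0.0222 and 0.0628). The rank correlation thus missed the threshold after adjustment. The r was -0.95 at 6 weeks, -0.81 at 10 weeks and -0.89 in the larger rat set. As each rat was left out it ran from -0.89 to -0.69, the latter without rat 81. Without the 2 rats farthest from the median level of the list it was -0.88. Those 2 rats were chosen by level and not by deviation from the age mean. Rat 81, whose list level deviated most from its age mean, was kept, so the value of -0.88 does not show its weight. Rat 81, lowest for *Per2* among the older rats, was highest among them for the proliferation list. At 10 weeks much of this list was low, with *Ccnb1* at 6 to 27, *Cdk1* at 7 to 45, *Tpx2* at 0 to 55 and *Aurkb* at 4 to 79. *Mki67* and *Top2a* were higher, at 155 to 766 and 57 to 282. Rat 78 had *Tpx2* at 0 and *Aurkb* at 4. *Cry2* had an r of -0.65 with the same list (rho -0.78, permutation p = 0.0121 and 0.00628, adjusted p = 0.0907 and 0.0628), and of -0.45 in the larger rat set.

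Across rats, *Per1* was higher where the immediate early genes were, with an r of 0.86 (rho 0.76, permutation p = 0.00079 and 0.00626, adjusted p = 0.0222 and 0.0628). It was 0.79 without the 2 rats farthest from the median level of that list, 0.90 at 6 weeks, 0.81 at 10 weeks and 0.88 in the larger rat set. *Per1* also moved with the first component (r = 0.78, rho 0.73, permutation p = 0.00305 and 0.00926, adjusted p = 0.0305 and 0.0694), with an r of 0.64 in the larger rat set. Once that component was removed, the r of *Per1* with the immediate early list was 0.57 (permutation p = 0.0648). All 5 rats of the smaller set lay above their age means for both *Per1* and the immediate early list. For *Nr1d1* the r was 0.69 with the immediate early list and 0.63 with the first component (adjusted permutation p = 0.0973 and 0.137). In the larger rat set these r of *Nr1d1* were 0.28 and -0.0022. The part of the smaller rat set in these relations was tested only by leaving it out.

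**Figure D5:**
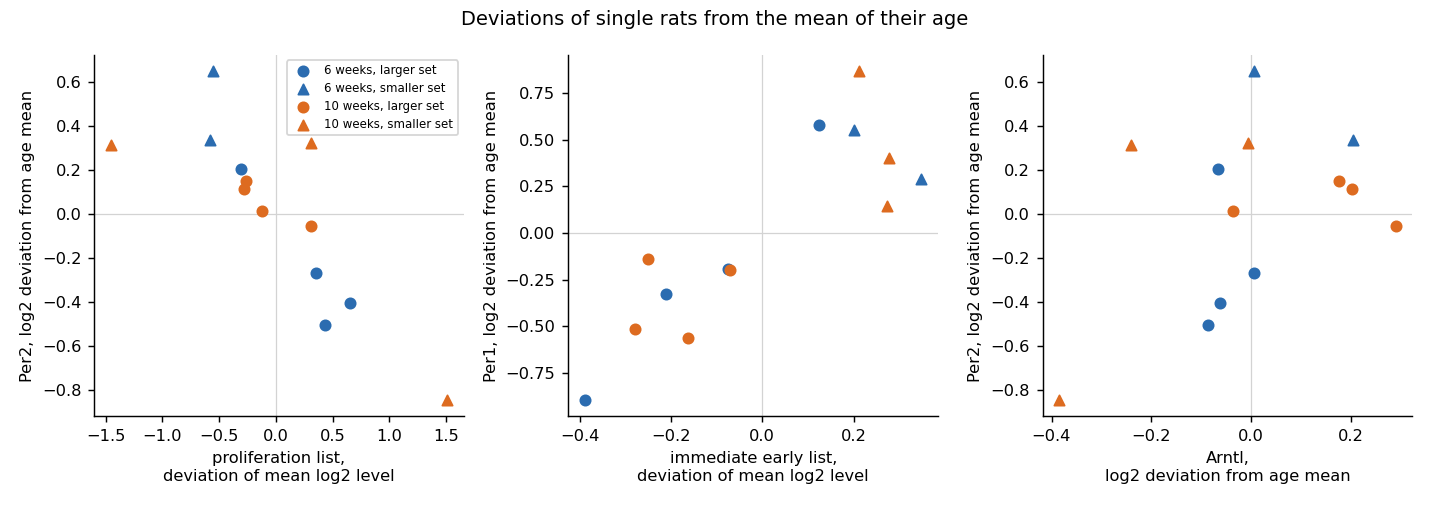
Deviations of single rats from the mean of their age (log2 scale on both axes) for *Per2* against the proliferation list, *Per1* against the immediate early list and *Per2* against *Arntl*, in blue at 6 weeks and orange at 10 weeks, with triangles for the smaller rat set. The points fall from upper left to lower right for *Per2* (r = -0.82) and rise for *Per1* (r = 0.86), while *Per2* and *Arntl* scatter (r = 0.44).

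For *Arntl* and *Dbp*, the genes most like them between rats were taken by Pearson r of the same deviations over 13 rats, among 8849 genes with a mean of at least 100. These are extremes of many and carry no p. For *Arntl* the highest were *Atp8b2* (0.95), *Etfbkmt* (0.91), *Capn2* (0.90), *Art3* (0.89) and *Mcam* (0.89), and the lowest were *AC125248.1* (-0.88), *Snd1* (-0.86), *Cat* (-0.84), *Crisp3* (-0.83) and *Arid3b* (-0.83). For *Dbp* the highest were *Zbtb39* (0.88), *Vangl1* (0.86), *Sppl3* (0.84), *Ikzf5* (0.83) and *Sun1* (0.83), and the lowest were *Tspan7* (-0.93), *Atp13a4* (-0.80), *Filip1* (-0.80), *Atp10b* (-0.77) and *Ppfibp2* (-0.75). No other clock gene was among either set of 10.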

How the data were processed

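Counts per gene were estimated by the authors in RSEM 1.2.22. The authors then scaled each library and deposited whole numbers, whose unit is taken as a score (scaled, rounded counts, here normalized counts). The submitters' processing notes name rn5, and the annotation used for counting is not given in the sources used here. Other columns deposited by the authors give the result of an EdgeR comparison, namely a fold change and mean abundance on the log2 scale, a likelihood ratio score, the p-value with its false discovery rate, and the −log10 of that p-value. None of these comparison columns was used. Depth per rat before scaling is not given, so no counting intervals were computed.

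The 13 rats were grouped by the age in their labels, and each is a separate animal. All 14790 genes, each with a mean of at least 1, were fitted with limma 3.58.1 in R 4.3.3 on log2(value + 1), with no covariate and p two-sided. The authors' tools were not run, since the values are not raw counts. Correlations used the deviations from the age means, with 100000 shufflings within the ages, and exact permutation within 1 age (Python 3.11.15, numpy 2.4.6, pandas 2.3.3, scipy 1.17.1). Both steps were tested on simulated data. Named genes are all members, the called genes of each list (at most 4 by smallest p, or the 2 smallest where none was called) and the 5 highest and 5 lowest r for *Arntl* and *Dbp*. *Tef*, *Hlf*, *Tspan4*, *Sgk1*, *Nr3c1* and single markers were named after their values were seen. The members, lists and tests were chosen with earlier results of these data known. Alternatives were 3 scalings (to median ratios, to library size and to the upper quartile), a pseudocount of 0.1, filters, limma-trend, sample quality weights, the rat sets and each rat left out.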

Additional observations from a re-analysis of the deposited data

Results flagged for a closer look

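Within each age, 23 genes (the clock genes and the called genes of the 4 pathway lists) were tested for a rat far from the rest by Dixon's ratio of gap to range. Chance alone flags about 1 in 20 groups, and 6 of 46 groups were flagged. *Arntl* was 1109 in rat 80 at 6 weeks, while the other 5 younger rats lay at 906 to 966. *Per2* was 442 in rat 81 at 10 weeks, against 764 to 994, and without that rat the log2 fold change of *Per2* was -0.92 (limma, adjusted p = 0.00834). *Nr1d2* was 2445 in rat 74 at 10 weeks, against 1396 to 1830. *Timeless* was 103 in rat 81, against 19 to 38 in the other rats at 10 weeks. *Pdk4* was 733 in rat 84 at 6 weeks, against 1265 to 1462, and *Zbtb16* was 211 in rat 78 at 10 weeks, against 46 to 112.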

How the results depend on the processing

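Of the 10 clock genes, 1 was called as reported, 0 with library size scaling, 2 with limma-trend, 4 with sample quality weights, 2 with the rat set as a term, 2 in the larger rat set alone, 0 in the smaller set alone, and 0 to 1 with each rat left out. Over all 14790 genes 2381 were called as reported, 2069 with library size scaling, 2608 with limma-trend, 5647 with sample quality weights and 3334 with the rat set as a term. In the larger set alone 3469 of 14774 were called. In the smaller set alone 0 were called (limma, where 1976 had an unadjusted p under 0.05). With each rat left out 1411 to 2680 were called. Library size scaling called 1297 genes higher within WOS and 772 higher outside WOS, against 1288 and 1093 as reported. Of the 45 pairs, 0 passed as reported, 2 with library size scaling, 1 with the first component removed and 0 to 2 with each rat left out. In the smaller set alone the log2 fold changes of *Cry2* (0.32), *Arntl* (0.17) and *Nr1d2* (-0.017) changed sign. Alternatives were followed for the 7 pairs with an unadjusted p under 0.05 and for *Arntl* with *Per2*, *Nr1d1*, *Dbp* and *Clock*. Among these the r of *Arntl* changed sign at 6 weeks alone with *Cry1* (-0.077), *Nr1d1* (0.74), *Dbp* (-0.29) and *Clock* (-0.093). It also did so in the larger set alone with *Dbp* (-0.39) and *Clock* (-0.71), with *Nr1d1* under library size scaling (0.075) and with the first component removed (0.0048), and with *Dbp* without rat 78 (-0.067, in a range up to 0.37 as each rat was left out). Outside these pairs, *Arntl* with *Per1* had an r of -0.32 over all rats, 0.57 at 6 weeks and 0.019 in the larger set, and changes of sign among the other pairs were not listed. The cause of these changes was not tested. The other alternatives, counted over the log2 fold changes of the clock genes, left 218 on the same side of the threshold with the same sign, 12 no longer past it and 6 newly past it. The larger rat set alone for the pairs, and the settings for the lists, were chosen after seeing the data. No paired analysis was possible because the rat numbers are not shared between the ages. Low values limit *Dbp*, which was not tested when at least 10 was required in every rat.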

Other observations

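By the same measure, and chosen after values had been seen, the genes most like *Per2* between rats were *Zbtb40* (r = 0.95), *Slc3a2* (0.95), *Slc4a11* (0.93), *Greb1* (0.92) and *Usp42* (0.92), and the least like were *Mgst1* (-0.96), *Hmgn2* (-0.95), *Dnajc9* (-0.94), *Oat* (-0.94) and *Prdx4* (-0.93). They are extremes among 8849 genes over 13 rats and carry no p.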
